A study of Arabidopsis thaliana with 9 samples.

Results

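The core circadian clock of *Arabidopsis thaliana* was examined through 10 genes, namely *LHY*, *CCA1*, *PRR9*, *PRR7*, *PRR5*, *TOC1*, *ELF3*, *ELF4*, *LUX*, and *GI*. They were chosen by name, and all 10 were found among the 28642 genes of the deposited table. RNA-seq, which counts sequenced cDNA fragments per gene, was done on shoots of 9 samples. There were 3 samples each of the wild type (ecotype Col-0), of *vtc2-4*, and of *vtc3-3*. Both mutants are T-DNA insertion lines, each represented by 1 allele. *vtc2-4* is disrupted in *VTC2*, which encodes GDP-L-galactose phosphorylase of ascorbate synthesis, and *vtc3-3* in *VTC3*, which encodes a protein with kinase and phosphatase domains. All plants were 2-week-old seedlings from diluted MS medium with 1% sucrose and a 16 h photoperiod, and all were kept for 48 h in darkness and then for 6 h in light of 100 µmol photons per square metre and second. The clock time of harvest is not given in the sources used here. A single time point was sampled, so a different transcript level and a different timing of a rhythm cannot be told apart. The same holds in whole shoots for fewer cells of a type and less RNA per cell.

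The plant clock is a loop of transcription factors that repress each other in sequence through the day. The MYB factors CCA1 and LHY accumulate around dawn and repress genes of the evening, many of which carry a DNA motif known as the evening element. The pseudo-response regulators PRR9, PRR7, PRR5, and TOC1 appear one after the other from morning to evening and repress *CCA1* and *LHY*. ELF3, ELF4, and LUX form the evening complex, a repressor of *PRR9*, *PRR7*, *GI*, and *LUX* itself. GI is a large plant-specific protein of the late day that acts on protein stability in the clock and on flowering.

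The evening element was searched for in the 1000 bases before each gene start of RefSeq (TAIR10.1), as the letters AAAATATCT on either strand. It was found upstream of 5 of the 10 genes, with 1 match each for *TOC1*, *ELF4*, and *LUX* and 3 matches each for *PRR5* and *GI*. Of all 27443 windows of that length before protein-coding genes, 7.24% held it. The windows below run 5′ to 3′ along the strand of the gene, and capitals mark the evening element or its reverse complement. The windows shown are those furthest from the gene start in each of the 5 genes that carry the evening element. They lie at chr5:8359229-8359287 on the minus strand for *PRR5*, chr5:24674787-24674845 on the plus strand for *TOC1*, chr3:17182964-17183022 on the plus strand for *LUX*, chr2:16735456-16735514 on the minus strand for *ELF4*, and chr1:8060917-8060975 on the plus strand for *GI*.
PRR5: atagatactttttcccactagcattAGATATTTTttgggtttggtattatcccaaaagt
TOC1: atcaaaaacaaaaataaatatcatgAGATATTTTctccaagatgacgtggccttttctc
LUX: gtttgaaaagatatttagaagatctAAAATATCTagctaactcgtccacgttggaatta
ELF4: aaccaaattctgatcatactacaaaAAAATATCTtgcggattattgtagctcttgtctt
GI: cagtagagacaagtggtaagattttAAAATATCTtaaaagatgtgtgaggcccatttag

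The match began 716 bases before the gene start of *PRR5*, 151 bases before that of *TOC1*, and 53 bases before that of *LUX*. It began 536 bases before the start of *ELF4* and 809 bases before that of *GI*. For *PRR5* the deposited table and RefSeq disagree on the start. The deposited gene begins 327 bases further upstream, and the matches at 292 and 187 bases before the RefSeq start lie inside it. For the other 9 genes the deposited first base lay between 0 and 101 bases inside the RefSeq gene.

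The other motifs were spread differently over the 10 genes. The CCA1-binding site AAAAATCT, a different string from the evening element, stood upstream of *LHY*, *PRR9*, and *PRR5*, against 21.1% of all windows. The G-box CACGTG, a site of light-signalling bHLH and bZIP factors, stood upstream of *LHY*, *CCA1*, *PRR9* (2 matches), *PRR7*, and *LUX*, 5 of 10 against 14.8% of all windows. Letters bound by LUX (GATACG or GATTCG, on either strand) stood upstream of 8 of the 10, all but *CCA1* and *PRR5*, and of 39.8% of all windows. The morning genes *LHY* and *CCA1* thus shared a G-box and held no evening element in these windows. A match is a description of the letters and not a measured binding site.

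**Figure D1:**
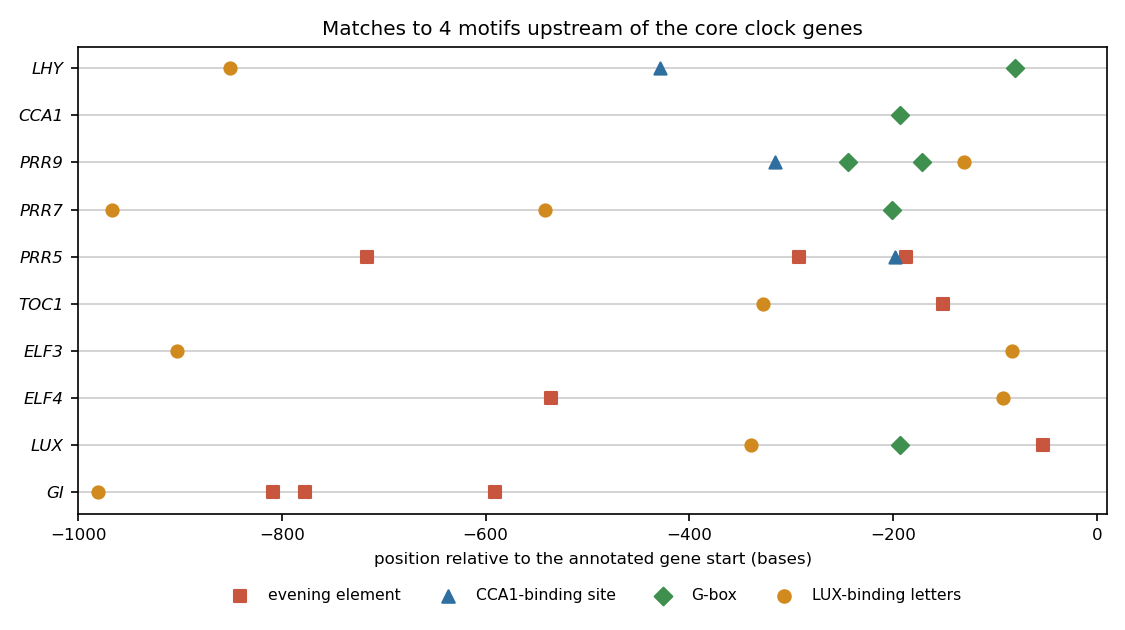
Matches to 4 motifs in the 1000 bases before the RefSeq start of each core clock gene, with the position of the first matched base on the horizontal axis in bases (gene start at 0) and 1 row per gene. Red squares, the evening element, occur only in the rows of *PRR5*, *TOC1*, *ELF4*, *LUX*, and *GI*, and green diamonds, the G-box, in those of *LHY*, *CCA1*, *PRR9*, *PRR7*, and *LUX*.

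The 9 libraries held 4399733 to 7567492 gene reads each. Wild-type libraries held 5070225 to 5853283 and those of *vtc2-4* 6765579 to 7249548, so depth did not overlap between these genotypes. Those of *vtc3-3* spanned the full range. *VTC2* fell to 38.6 ± 5.97 normalized counts in *vtc2-4* against 4088 ± 909 in the wild type, and *VTC3* to 21.7 ± 4.84 in *vtc3-3* against 101.8 ± 18.7 (mean ± SD, n = 3 each), as the labels have it. Normalized counts here are read counts scaled by TMM-adjusted library size. Leaf marker genes were high in every library, summing to 8187 to 17039 RPKM across wild-type libraries, 16510 to 18034 across those of *vtc2-4*, and 16698 to 17625 across those of *vtc3-3*. RPKM is a read count scaled to exon length and to the library total. Root markers summed to 19.8 to 51.4 RPKM across wild-type libraries, 41.6 to 74.9 across those of *vtc2-4*, and 57.0 to 73.4 across those of *vtc3-3*, so *vtc3-3* lay wholly above the wild type. The part of this in the results below was not tested. Among the root markers *NRT2.1* reached at most 0.27 and *PHT1;1* at most 1.02 RPKM in any library. The sums thus rest on *PIP2;5*, *EXT3*, and *PRX34*. One library, wild-type replicate 1, was unlike the remaining 8. It correlated with them at a mean r of 0.906, where each of those reached at least 0.972, and its deviation from the other libraries fell with exon length (r = -0.56 across genes, against -0.03 to 0.17). Intron reads made up 1.62% of its reads, against 1.12% to 1.26%. The lowest sums of leaf markers (8187 RPKM) and of root markers (19.8 RPKM) were also those of this library. The fitted differences are therefore given with and without this library. The wild type has 2 libraries when it is left out. Leaving it out lowered the common biological coefficient of variation over all genes from 0.186 to 0.0521.

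Reads were found on all 10 genes in every library. In *vtc3-3* *PRR7* was highest at 59.1 ± 1.90 RPKM (mean ± SD, n = 3 for each level here). *ELF4* followed at 38.6 ± 4.60, *GI* at 37.3 ± 1.76, and *CCA1* at 34.7 ± 2.80 RPKM, and these 3 overlapped their neighbours while *PRR7* stood clear of them. Below, *TOC1* (24.3 ± 0.584), *PRR5* (22.5 ± 0.530), and *PRR9* (20.5 ± 1.07) did not overlap one another. *ELF3* at 18.6 ± 0.423 and *LUX* at 18.6 ± 1.30 RPKM could not be ordered, and *LHY* was lowest at 3.09 ± 0.654 RPKM. *CCA1* and *LHY*, which encode closely related proteins, thus differed widely in level after 6 h of light. The ratio of *CCA1* to *LHY* on the RPKM scale ran from 8.44 to 13.1 over wild-type libraries, from 8.90 to 11.9 over *vtc2-4*, and from 9.86 to 12.4 over *vtc3-3*, ranges that overlapped.

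The order of the means differed among the genotypes in the middle ranks. In the wild type each gene from rank 1 to rank 8 overlapped the next, so these ranks order means only. In the wild type *CCA1* had rank 3 at 34.9 ± 4.85 RPKM and *PRR5* rank 7 at 18.2 ± 2.91 RPKM. In *vtc2-4* *PRR5* had rank 4 at 31.2 ± 5.50 RPKM and *CCA1* rank 6 at 23.2 ± 2.22 RPKM. *PRR9* had rank 5 in the wild type (26.4 ± 6.32 RPKM) and rank 9 in *vtc2-4* (15.8 ± 0.301 RPKM). In all 3 genotypes *PRR7* had the highest mean, though it overlapped *ELF4* in the wild type, and *LHY* was last without overlap. With wild-type replicate 1 left out, the wild-type levels of *CCA1*, *PRR5*, and *PRR9* were 32.4, 19.9, and 22.7 RPKM (mean of 2 libraries), at ranks 4, 7, and 6.

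*vtc2-4* was compared with the wild type to ask whether loss of *VTC2* went with a different state of the clock genes in the light. In *vtc2-4* the morning genes *CCA1* and *LHY* and the first pseudo-response regulator *PRR9* had lower counts, and the later regulators *PRR5* and *TOC1* and the evening complex gene *ELF3* had higher counts, with no overlap between the 3 wild-type and the 3 *vtc2-4* libraries for these 6 genes. Of all 17388 genes tested, 16.6% did not overlap in this comparison. With all 9 libraries, 0 of the 10 genes passed an adjusted p under 0.05 in edgeR's quasi-likelihood test, as against 0.598% of all genes. At an unadjusted p under 0.05 there were 5 (*PRR5*, *PRR9*, *CCA1*, *TOC1*, and *LHY*), against 9.9% of all genes. DESeq2 and limma with library weights each called 3, *CCA1*, *PRR9*, and *PRR5*, where they called 1.51% and 5.43% of all genes. By edgeR's exact test 0 of the 10 were called, against 172 of all 17227 genes tested there. Leaving out wild-type replicate 1 gave 4 of 10 past the adjusted threshold in edgeR, against 6.05% of all genes. *CCA1* and *PRR9* fell (3.01% of all genes did), and *PRR5* and *LUX* rose (3.03% did). Leaving out any other single library gave 0 of 10. The median size of the log2 fold change, without its sign, was 0.37 over the 10 genes and 0.22 over all genes with all libraries, and 0.35 and 0.13 without that library.

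**Figure D2:**
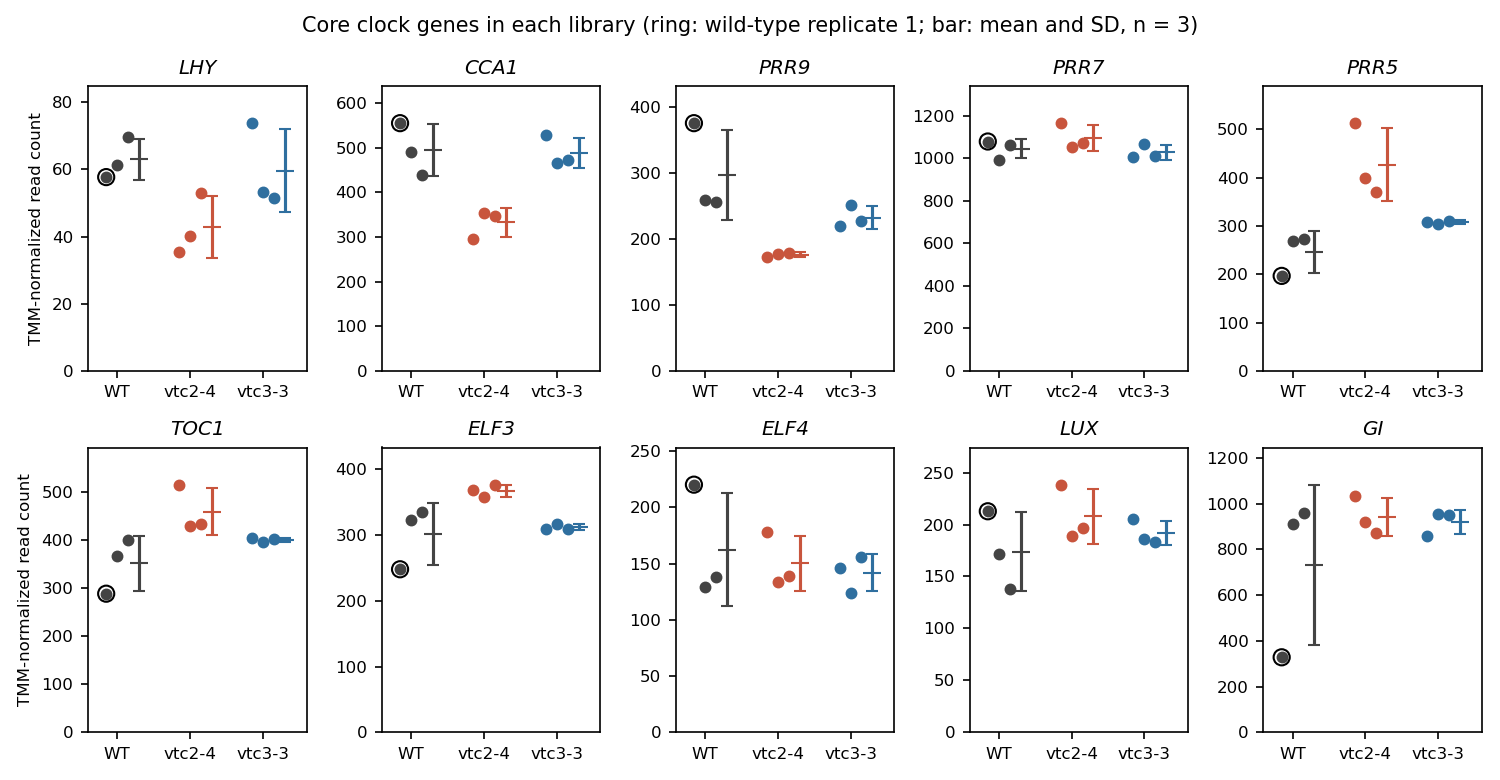
TMM-normalized read counts of each core clock gene in the 9 libraries (1 panel per gene, axes from 0), with points for libraries, bars for the mean and SD of 3, and a ring around wild-type replicate 1. In *vtc2-4* all libraries lie below all wild-type libraries for *LHY*, *CCA1*, and *PRR9* and above them for *PRR5*, *TOC1*, and *ELF3*, and *GI* is low only in the ringed library.

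*CCA1* (AT2G46830, chromosome 2, 19245672 to 19248914) had 555, 489, and 439 normalized counts in the wild type and 296, 354, and 348 in *vtc2-4*. All *vtc2-4* libraries lay below all wild-type libraries. With all libraries its log2 fold change was -0.57 ± 0.13 (SE, adjusted p = 0.12 by edgeR). When wild-type replicate 1 was left out, it fell to 0.719 of the wild-type level, a log2 fold change of -0.48 ± 0.089 (adjusted p = 0.0016). *LHY* (AT1G01060, chromosome 1, 33379 to 37871), its partner, had 57.7, 61.5, and 69.8 normalized counts in the wild type and 35.3, 40.0, and 53.1 in *vtc2-4*. Those groups did not overlap either, but only 38 to 95 reads per library fell on it. Its log2 fold change was -0.56 ± 0.21 (adjusted p = 0.44) with all libraries and -0.62 ± 0.21 (adjusted p = 0.091, edgeR) without wild-type replicate 1.

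*PRR9* (AT2G46790, chromosome 2, 19232649 to 19235087), the earliest of the pseudo-response regulators, had 375, 259, and 256 normalized counts in the wild type. It had 172, 177, and 179 in *vtc2-4*, the tightest group of the 10 genes there with a coefficient of variation of 2.03%. The wild-type value of 375 belonged to replicate 1, and the other values of that genotype were also above all of *vtc2-4*. Its log2 fold change was -0.75 ± 0.16 (adjusted p = 0.098) with all libraries. It was -0.55 ± 0.095 when wild-type replicate 1 was left out (adjusted p = 0.0009, edgeR), or 0.685 of the wild-type level. With uniquely mapped reads and all libraries *PRR9* passed the threshold, at a log2 fold change of -0.80 (adjusted p = 0.040).

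Of the reads on *PRR9*, 65.9% mapped to it alone, whereas all reads on the other 9 genes did. The reference holds a near-copy of part of it, AT2G46670, on the same chromosome (19164357 to 19165233 in TAIR10.1, minus strand). They share 735 bases without a difference, and stretches of 20 or more identical bases make up 96.0% of the 877 bases of AT2G46670. The start of the longest shared run in the coding exon of each gene is printed because reads from it cannot be assigned. It lies at chr2:19234389-19234448 on the plus strand in *PRR9* and chr2:19165042-19165101 on the minus strand in AT2G46670, with the run in capitals and the 10 bases before it in lower case.
PRR9: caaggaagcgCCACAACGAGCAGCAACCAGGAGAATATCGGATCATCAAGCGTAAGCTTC
AT2G46670: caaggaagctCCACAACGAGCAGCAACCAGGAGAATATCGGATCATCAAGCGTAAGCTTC

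Between 0 and 18 reads per library were counted on AT2G46670, of which at most 1 was unique, so the deposited counts placed nearly all shared reads on *PRR9*. The unique share of *PRR9* reads ran from 63.5% to 70.8% over wild-type libraries, from 63.7% to 66.7% over *vtc2-4*, and from 62.7% to 66.5% over *vtc3-3*.

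*PRR5* (AT5G24470, chromosome 5, 8355951 to 8358873), which follows PRR9 and PRR7 in the day, had 197, 270, and 274 normalized counts in the wild type and 513, 400, and 369 in *vtc2-4*. Every *vtc2-4* library was above every wild-type library. The log2 fold change was 0.79 ± 0.17 (adjusted p = 0.087) with all libraries, and 0.65 ± 0.11 (adjusted p = 0.00078, edgeR) without wild-type replicate 1, or 1.57 times the wild-type level. When the trend with exon length was removed from each library, *PRR5* passed with all 9 libraries (0.72, adjusted p = 0.023), but not when a replicate block was added to that fit (0.71, adjusted p = 0.054). *TOC1* (AT5G61380, chromosome 5, 24675064 to 24678550), the last of the series, had 289, 368, and 400 normalized counts in the wild type and 516, 429, and 435 in *vtc2-4*. Its log2 fold change was 0.38 ± 0.14 (adjusted p = 0.42), and 0.26 ± 0.085 (adjusted p = 0.088, edgeR) without wild-type replicate 1.

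*PRR7* (AT5G02810, chromosome 5, 637897 to 641977), between PRR9 and PRR5 in the sequence, was the steadiest of the 10 in the wild type. It had 1080, 994, and 1062 normalized counts there and 1166, 1054, and 1071 in *vtc2-4*. The groups overlapped, and the 95% interval of the log2 fold change ran from -0.17 to 0.31 with all libraries and from -0.04 to 0.22 without wild-type replicate 1. The pseudo-response regulators therefore differed in direction, with *PRR9* lower, *PRR7* level within those bounds, and *PRR5* higher in *vtc2-4*.

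Of the evening complex genes, 1 passed the test, and only without wild-type replicate 1. *LUX* (AT3G46640, chromosome 3, 17183070 to 17185218), its DNA-binding subunit, had 213, 171, and 138 normalized counts in the wild type and 238, 189, and 196 in *vtc2-4*. Wild-type replicate 1 overlapped *vtc2-4* and the others did not. The log2 fold change was 0.26 ± 0.17 (adjusted p = 0.56) with all libraries and 0.44 ± 0.12 (adjusted p = 0.043, edgeR) without that library. *ELF3* (AT2G25930, chromosome 2, 11059035 to 11063324), the scaffold of the complex, had 248, 323, and 336 normalized counts in the wild type and 368, 358, and 376 in *vtc2-4*. The groups did not overlap, at a log2 fold change of 0.28 ± 0.13 (adjusted p = 0.51), or 0.16 ± 0.076 (adjusted p = 0.28, edgeR) without wild-type replicate 1. *ELF4* (AT2G40080, chromosome 2, 16734294 to 16734912) had 220, 129, and 139 normalized counts in the wild type and 178, 133, and 139 in *vtc2-4*. The high wild-type value was that of replicate 1, and the log2 fold change was -0.12 ± 0.22 with it and 0.16 ± 0.14 without it, with adjusted p = 0.81 and 0.60 by edgeR.

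*GI* (AT1G22770, chromosome 1, 8061844 to 8067716) had 328, 910, and 958 normalized counts in the wild type and 1033, 920, and 872 in *vtc2-4*. Wild-type replicate 1 alone was low. With all libraries the log2 fold change was 0.36 ± 0.32 (adjusted p = 0.62), and without it 0.01 ± 0.073 (adjusted p = 0.97, edgeR), with a 95% interval from -0.14 to 0.16.

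**Figure D3:**
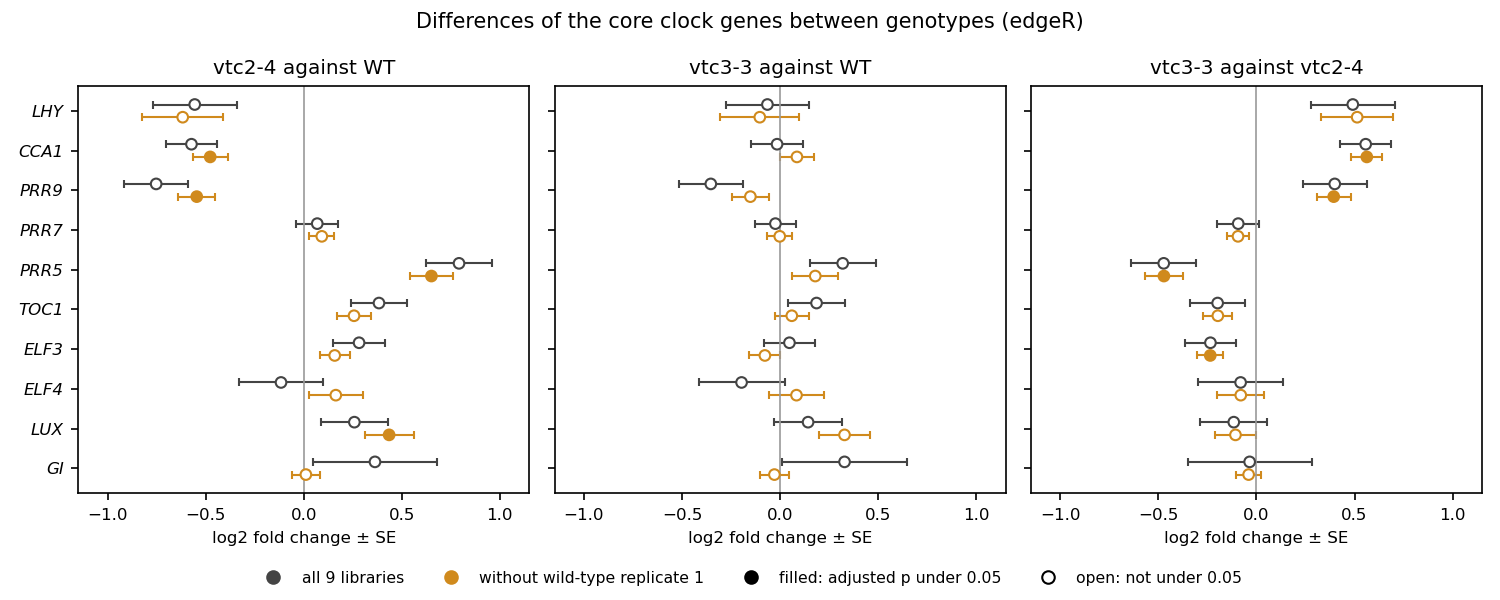
Fitted log2 fold changes of the core clock genes (horizontal axis, with SE bars) in the 3 comparisons, with all 9 libraries in grey and without wild-type replicate 1 in orange. Filled points have an adjusted p under 0.05 in edgeR and occur only in orange, for 4 genes each in *vtc2-4* against the wild type and *vtc3-3* against *vtc2-4*.

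Wild-type replicate 1 did not act on the 10 genes alike. Relative to the mean of the other wild-type libraries it held 0.351 times the *GI* count, 1.65 times that of *ELF4*, 1.46 times that of *PRR9*, 1.38 times that of *LUX*, and 1.20 times that of *CCA1*. *PRR5*, *TOC1*, and *ELF3* were at 0.724, 0.752, and 0.754, *LHY* at 0.880, and *PRR7* at 1.05. Over all genes in 10 bins of exon length the median log2 ratio went from 1.09 in the shortest bin to -0.71 in the longest. The log2 ratios of *PRR5* (-0.47), *TOC1* (-0.41), and *ELF3* (-0.41) lay within the interquartile range of genes of their length, as did that of *ELF4* (0.72). Those of *PRR9* (0.54), *LUX* (0.46), *CCA1* (0.26), *PRR7* (0.07), and *LHY* (-0.18) lay above that range. *GI*, with 4136 bases of exon the longest of the 10, lay below it at -1.51. What set these values apart was not tested.

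**Figure D4:**
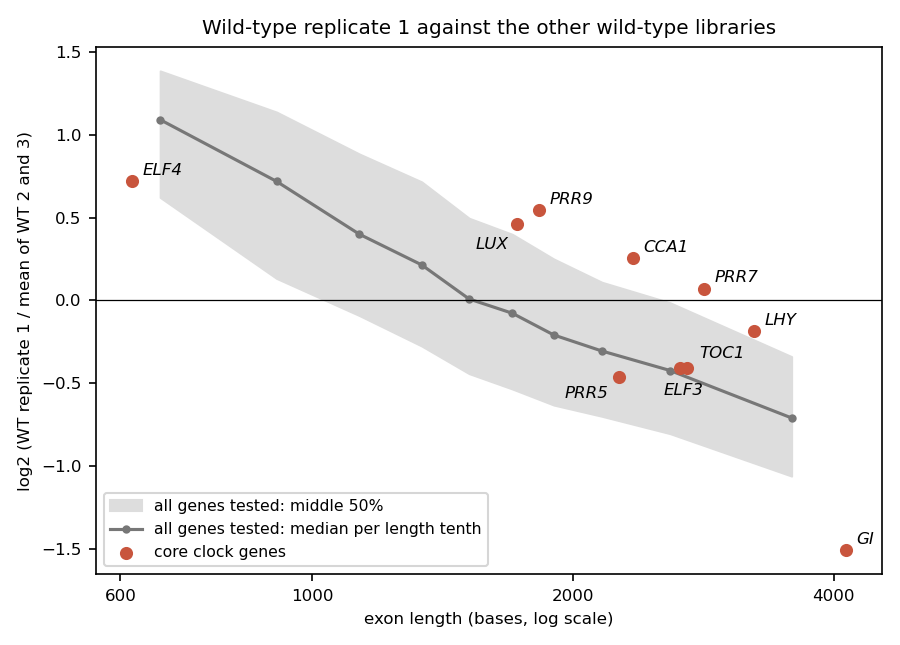
Log2 ratio of wild-type replicate 1 to the mean of wild-type replicates 2 and 3 (vertical axis, normalized counts) against exon length in bases (log axis), with the median and interquartile range of all genes tested in grey in 10 bins of length and the core clock genes in red. *ELF4*, the shortest, stands at 0.72 and *GI*, the longest, at -1.51, and *PRR9*, *LUX*, *CCA1*, *PRR7*, and *LHY* lie above the grey band.

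*vtc3-3* was compared with the wild type to ask the same of *VTC3*. No change of the 10 genes passed the test in *vtc3-3*. With all libraries 0 of 10 passed by edgeR (0.023% of all genes did), 0 at an unadjusted p under 0.05 (6.23%), 0 by DESeq2 (0.0662%), and 0 by limma with library weights (0.65%). Leaving out wild-type replicate 1 gave 0 of 10 as well in edgeR, against 0.681% of all genes, and 1 at an unadjusted p under 0.05 (8.87%), *LUX* at a log2 fold change of 0.33 ± 0.13 (adjusted p = 0.41). The median size of the log2 fold change was 0.16 over the 10 and 0.21 over all genes with all libraries, and 0.085 and 0.11 without that library.

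In *vtc3-3* *CCA1* had 527, 467, and 473 normalized counts, within the wild-type range, with a log2 fold change of -0.02 ± 0.13 with all libraries. The 95% interval without wild-type replicate 1 was -0.10 to 0.27. *LHY* had 73.8, 53.2, and 51.6 and a log2 fold change of -0.06 ± 0.21. *PRR9* had 219, 251, and 227, all below the wild type, at -0.35 ± 0.16 (adjusted p = 0.63) and, without that library, at -0.15 ± 0.094 (adjusted p = 0.71). *PRR5* had 309, 303, and 311, all above the wild type, at 0.32 ± 0.17 (adjusted p = 0.63) and 0.18 ± 0.12 (adjusted p = 0.72). *PRR9* and *PRR5* were the 2 genes of the 10 whose groups did not overlap in this comparison, where 12.1% of all genes did not.

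The remaining genes overlapped the wild type, *LUX* and *ELF3* through wild-type replicate 1 alone. *TOC1* had 404, 396, and 402 normalized counts in *vtc3-3*, *PRR7* 1006, 1067, and 1012, and *ELF3* 310, 317, and 310. *ELF4* had 146, 124, and 156, *LUX* 205, 186, and 183, and *GI* 858, 953, and 948. With all libraries their log2 fold changes were 0.19 ± 0.14 for *TOC1*, -0.02 ± 0.11 for *PRR7*, 0.05 ± 0.13 for *ELF3*, -0.20 ± 0.22 for *ELF4*, 0.14 ± 0.17 for *LUX*, and 0.33 ± 0.32 for *GI* (adjusted p from 0.64 to 0.92, edgeR). Replicates of *vtc3-3* were close for some genes, with a coefficient of variation of 1.05% for *TOC1*, 1.31% for *PRR5*, and 1.36% for *ELF3*. The 95% intervals of the log2 fold changes without wild-type replicate 1 were -0.12 to 0.24 for *TOC1*, -0.14 to 0.13 for *PRR7*, -0.24 to 0.09 for *ELF3*, and -0.18 to 0.13 for *GI*, all edgeR. They were wider for *LHY* (-0.52 to 0.32), *ELF4* (-0.21 to 0.38), and *LUX* (0.06 to 0.60).

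The mutants were also compared with each other, a comparison that uses no wild-type library except for the shared spread and scaling. In *vtc3-3* relative to *vtc2-4*, *CCA1* and *PRR9* had higher and *PRR5*, *TOC1*, and *ELF3* lower counts without overlap, 5 of 10, where 23.5% of all genes did not overlap. With all 9 libraries 0 of 10 passed the adjusted threshold in edgeR (0.351% of all genes did) and 4 had an unadjusted p under 0.05 (5.1%). DESeq2 called 1, *CCA1* (0.677% of all genes), and limma with library weights 3, *CCA1*, *PRR9*, and *PRR5* (6.35%). A fit that dropped wild-type replicate 1 gave 4 of 10 passing in edgeR, 2 higher and 2 lower, against 6.76% of all genes (3.15% higher and 3.6% lower). The 6 mutant libraries fitted alone gave 4 as well, against 6.72% of all genes.

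In the fit without wild-type replicate 1, *CCA1* was 1.48 times as high in *vtc3-3* as in *vtc2-4*, a log2 fold change of 0.56 ± 0.079 (adjusted p = 0.0001). *PRR9* was higher by 0.39 ± 0.086 (adjusted p = 0.0064). *PRR5* was lower, at -0.47 ± 0.096 (adjusted p = 0.0037), and so was *ELF3*, at -0.24 ± 0.067 (adjusted p = 0.038, all edgeR). *LHY* (0.51 ± 0.19, adjusted p = 0.12) and *TOC1* (-0.20 ± 0.075, adjusted p = 0.14) did not pass. With all 9 libraries the log2 fold changes of these genes were 0.56, 0.40, -0.47, -0.23, 0.49, and -0.20, in that order, with adjusted p = 0.24 for *CCA1*, 0.85 for *PRR9*, and 0.67 for *PRR5*. With the mutant libraries alone, the adjusted p was 0.00011 for *CCA1*, 0.0080 for *PRR9*, 0.0049 for *PRR5*, and 0.049 for *ELF3*. For *PRR7*, *ELF4*, *LUX*, and *GI* the log2 fold changes lay between -0.12 and -0.03 with all libraries, and between -0.11 and -0.04 without wild-type replicate 1.

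Within each library, *CCA1* and *PRR5* were set side by side on the RPKM scale, a pair chosen after the values were seen. Their exon lengths are close, at 2344 and 2257 bases. *CCA1* over *PRR5* came to 2.69, 1.74, and 1.52 in wild-type libraries. It came to 0.552, 0.845, and 0.906 for *vtc2-4* and to 1.64, 1.49, and 1.48 for *vtc3-3*. *CCA1* was thus above *PRR5* in the 6 wild-type and *vtc3-3* libraries and below it in the 3 *vtc2-4* libraries. The ratio of *PRR9* to *PRR5*, also chosen after the values were seen, ran from 1.14 to 2.26 over wild-type libraries. It ran from 0.415 to 0.593 over *vtc2-4* and from 0.863 to 0.986 over *vtc3-3*, so that those 3 ranges did not overlap. Both genes already lay apart without overlap, in opposite directions, in each comparison of genotypes, so the ratio adds no separate support.

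**Figure D5:**
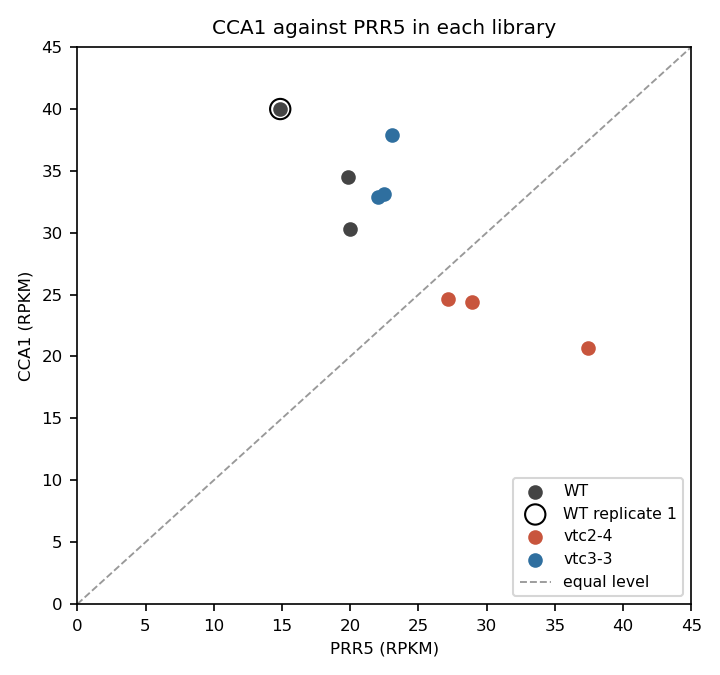
Level of *CCA1* (vertical) against that of *PRR5* (horizontal) in each of the 9 libraries, both in RPKM, with equal levels on the dashed line and a ring around wild-type replicate 1. The *vtc2-4* libraries lie below the line, at ratios of 0.552 to 0.906, and the other libraries above it, at 1.48 to 2.69.

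Intron reads can come from unspliced or intron-retaining transcripts, and their source was not tested here. They were counted on 9 of the 10 genes, the exception being *ELF4*, which has 1 exon. Over all libraries they made up 5.37% of the reads of *ELF3* (162 of 3018, Wilson 95% interval 4.62% to 6.23%), 3.33% of those of *PRR9* (2.65% to 4.19%), and 3.20% of those of *PRR7* (2.87% to 3.57%). At the other end stood *LHY* at 0.398% (2 of 503) and *GI* at 0.227% (18 of 7925). These intervals cover counting error only. *ELF3* and *PRR7* alone had the mean of 10 intron reads per library needed for the test of the intron-to-exon ratio. Neither passed in any comparison, with the log2 difference of *vtc2-4* from the wild type at -0.04 ± 0.32 for *ELF3* and 0.22 ± 0.24 for *PRR7*, and adjusted p = 0.97 and 0.76 by edgeR, where 2.56% of 1174 genes passed. Leaving out wild-type replicate 1 moved these to 0.26 ± 0.35 and 0.02 ± 0.23 (adjusted p = 0.82 and 0.98). In *vtc3-3* against the wild type and against *vtc2-4*, 0.426% and 0.681% of genes passed. In the untested *PRR9*, 31 of 819 wild-type reads were intronic, against 12 of 616 from *vtc2-4* and 27 of 666 from *vtc3-3*. The shares per library were 2.41% to 4.56%, 1.54% to 2.39%, and 2.48% to 5.53%, with *vtc2-4* lowest and each library resting on 3 to 16 intron reads. *PRR5*, also untested, went the other way, at 0.439% to 1.12% in wild-type libraries and 1.25% to 1.55% in *vtc2-4*. Its libraries held 1 to 9 intron reads each, and its range in *vtc3-3* was 1.01% to 2.62%. For *LHY*, *CCA1*, *TOC1*, *LUX*, and *GI* the ranges of the wild type and *vtc2-4* overlapped.

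A further 34 clock-associated genes were listed, of which 32 were tested. With all libraries 0 passed in edgeR in any comparison, with 6, 3, and 3 at an unadjusted p under 0.05 in *vtc2-4* and *vtc3-3* against the wild type and in *vtc3-3* against *vtc2-4*. Of all genes, 9.9%, 6.23%, and 5.1% had such a p. DESeq2 called 1, 0, and 0, against 1.51%, 0.0662%, and 0.677% of all genes. With that wild-type library left out, 4 passed in *vtc2-4* against the wild type (3 higher, 1 lower), 0 in *vtc3-3* against the wild type, with 2 at an unadjusted p under 0.05, and 4 between the mutants, where 6.05%, 0.681%, and 6.76% of all genes passed.

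Without that library *CHE*, a TCP factor that binds the *CCA1* promoter, rose in *vtc2-4* by 0.51 ± 0.092 on the log2 scale (adjusted p = 0.0011). Its normalized counts were 211, 254, and 279 for wild-type libraries, 383, 385, and 377 for *vtc2-4*, and 254, 309, and 306 for *vtc3-3*, and it was lower in *vtc3-3* than in *vtc2-4* by -0.42 ± 0.080 (adjusted p = 0.0024, edgeR). The *vtc2-4* libraries lay above all others. The MYB-like gene AT1G01520 (*ASG4*) fell in *vtc2-4* to a log2 fold change of -0.91 ± 0.22 (adjusted p = 0.017) and was higher in *vtc3-3* than in *vtc2-4* by 0.71 ± 0.20 (adjusted p = 0.039, edgeR). *RVE2* rose in *vtc2-4* by 0.82 ± 0.15 (adjusted p = 0.0013), but with wild-type replicate 1, which held 409 normalized counts against 148 and 102, its log2 fold change was -0.01 ± 0.41. *PRMT5*, an arginine methyltransferase that acts on splicing of clock transcripts, rose by 0.25 ± 0.068 (adjusted p = 0.031). *LNK1* and *RVE8*, which together activate evening genes, were higher in *vtc3-3* than in *vtc2-4* by 0.24 ± 0.055 (adjusted p = 0.011) and 0.38 ± 0.10 (adjusted p = 0.025, edgeR). DESeq2 with all libraries also called *CHE* in *vtc2-4* against the wild type, at a log2 fold change of 0.62 (adjusted p = 0.011). In edgeR's quasi-likelihood test none of these calls held with all libraries. In *vtc2-4* against the wild type the adjusted p was then 0.11 for *CHE*, 0.084 for AT1G01520, 0.99 for *RVE2*, and 0.44 for *PRMT5*. In *vtc3-3* against *vtc2-4* the log2 fold changes were -0.40 for *CHE*, 0.71 for AT1G01520, 0.23 for *LNK1*, and 0.38 for *RVE8* (adjusted p = 0.63, 0.32, 1.00, and 0.87, edgeR).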

How the data were processed

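RNA-seq data of shoots were used for 3 samples per genotype, grouped by the labels (Col-0 wild type and the mutants *vtc2-4* and *vtc3-3*). The authors mapped MiSeq reads and counted them per gene in CLC Genomics Workbench. They deposited raw read counts without normalization together with RPKM values. Genome build, annotation version, and use of strand are not given in the sources used here, and the library kit does not mark strand. The deposited RPKM values are the authors' own and were recomputed from exon reads, exon length, and total gene reads, which they match within 1%. Exon length, exon number, and position are deposited annotation scores, with 1 added to each start. Of 171 columns with values of a library, 54 were assigned to libraries, 6 read as annotation, and 111 not used. Another 22 columns of means, fold changes, and p-values were not used.

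The 10 genes, the other lists, and the tests were chosen with earlier results of these data known. All named genes follow from these lists, with *VTC2* and *VTC3* as the genotype check, and members of the second clock list were named where the adjusted p was under 0.05 with all libraries or without wild-type replicate 1. AT2G46670 and the ratios within libraries were chosen after values were seen. Total gene reads per gene were filtered with filterByExpr (17388 genes tested), normalized by TMM, and fitted with edgeR 4.0.16 (quasi-likelihood test, in R 4.3.3) on genotype alone. Benjamini–Hochberg adjustment ran over all genes tested. Intron and exon reads were fitted with a term for each library, over genes with a mean of at least 10 intron reads. P-values of the main fit rest on a spread within genotypes that the 3 genotypes share, with 3 samples each, stated to be biological replicates. Those of *vtc3-3* against *vtc2-4* thus also depend on the spread of the wild type. In fits without wild-type replicate 1 the wild type is represented by 2 samples. Alternatives were DESeq2 1.42.0, edgeR's exact test, limma 3.58.1 with library weights, upper-quartile normalization, no filter, exon reads, only the compared genotypes, a replicate block, subtraction of the exon length trend per library (lowess, span 0.3, alone or with the block), at least 20 intron reads, and each library left out. Uniquely mapped reads, and removal of the length trend without wild-type replicate 1, were added after the data were seen. Fits were also run on simulated counts, and those outcomes are not given here. The simulated libraries held no trend with exon length, so they do not bear on wild-type replicate 1. Sequences and motifs are from RefSeq TAIR10.1, in which 28009 gene identifiers matched. Same-numbered samples deviated from their group means with correlations of -0.02 to 0.09, most of them positive. Differently numbered samples did so with correlations of -0.10 to 0.08, most of them negative. What this difference reflects was not tested. In the main fit the numbers were not taken to pair the samples, and the replicate block was an alternative.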

Additional observations from a re-analysis of the deposited data

Results flagged for a closer look

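In the fit without wild-type replicate 1, 4 of the 10 core clock genes differed between the *vtc2-4* and *vtc3-3* lines in a direct test. Whether the alleles themselves account for this was not tested. The log2 fold changes of *vtc3-3* against *vtc2-4* were 0.56 for *CCA1*, 0.39 for *PRR9*, -0.47 for *PRR5*, and -0.24 for *ELF3*. With all 9 libraries the same comparison gave 0 of 10 in edgeR, 1 in DESeq2 (*CCA1*), and 3 in limma with library weights. With groups of 3 samples, no test for single outlying samples was made.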

How the results depend on the processing

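Calls among the clock genes depended on wild-type replicate 1. When each library was left out in turn, the core genes called numbered 0 to 4 in *vtc2-4* against the wild type, 0 in *vtc3-3* against the wild type, and 0 to 4 in *vtc3-3* against *vtc2-4*. The further clock-associated genes called numbered 0 to 4, 0, and 0 to 4, and all genes called 32 to 1066, 1 to 120, and 8 to 1191, with the highest value each time without wild-type replicate 1. In *vtc2-4* against the wild type, core genes called were 3 by DESeq2, 3 by limma with library weights, 1 with the length trend removed, 1 with uniquely mapped reads, and 4 with the length trend removed and wild-type replicate 1 left out. They were 0 by edgeR's exact test and with upper-quartile normalization, no filter, exon reads, or only the compared genotypes. In *vtc3-3* against *vtc2-4* they were 0 with upper-quartile normalization, no filter, exon reads, uniquely mapped reads, or the length trend removed with all libraries. In that comparison they were 1 by DESeq2, 4 by edgeR's exact test, 3 by limma, and 4 with the mutants alone. They were also 4 with the length trend removed and wild-type replicate 1 left out. Of the further genes, DESeq2 called 1, limma 4, and the last-named setting 4 in *vtc2-4* against the wild type, and the exact test, limma, the mutants alone, and the last-named setting 4 each between the mutants.

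Over all genes, the same settings moved the counts from 104, 4, and 61 in the 3 comparisons. DESeq2 gave 276, 15, and 130, the exact test 172, 18, and 1305, limma with library weights 945, 113, and 1105, only the compared genotypes 34, 0, and 1167, and the length trend removed without wild-type replicate 1 969, 118, and 1131. The length trend removed with all libraries gave 211 and 96 in *vtc2-4* against the wild type and *vtc3-3* against *vtc2-4*, and 169 in the first of these with the replicate block. With that block the 1 core gene called with the length trend removed, *PRR5*, was no longer called (0.71, adjusted p = 0.054). The cause was not tested. The replicate block alone gave 70, 4, and 51 and called 0 core genes, and replicate numbers were not taken to pair the samples.

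Small log2 fold changes turned in sign. With the length trend removed, *vtc2-4* against the wild type gave -0.082 for *PRR7* (-0.069 with the replicate block) and 0.18 for *ELF4* (0.18 with the block, 0.073 without wild-type replicate 1), and limma gave 0.13 for *ELF4*. In *vtc3-3* against the wild type, limma gave 0.065 for *CCA1*, 0.0068 for *PRR7*, -0.066 for *ELF3*, and 0.069 for *ELF4*. With the length trend removed, *ELF3* was at -0.072 and *ELF4* at 0.16, with the block at -0.071 and 0.16, and without wild-type replicate 1 *CCA1* was at 0.092, *PRR7* at 0.013, *ELF3* at -0.066, and *ELF4* at 0.053. Leaving out single libraries gave ranges across 0 for *ELF4* in *vtc2-4* against the wild type (-0.25 to 0.16). In *vtc3-3* against the wild type it did so for *LHY* (-0.26 to 0.030), *CCA1* (-0.095 to 0.086), *ELF3* (-0.077 to 0.13), *ELF4* (-0.33 to 0.084), *LUX* (-0.0028 to 0.33), and *GI* (-0.029 to 0.57), and between the mutants for *ELF4* (-0.16 to 0.060) and *GI* (-0.087 to 0.037). None of the genes called in *vtc2-4* against the wild type without wild-type replicate 1 turned in sign in that comparison. Depth limited *LHY*, with 38 to 95 reads per library, and the intron reads of all genes but *PRR7* and *ELF3*.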

Other observations

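*PRR9* and *CCA1*, both lower in *vtc2-4*, lie 10584 bases apart on chromosome 2, with 3 genes between them. With wild-type replicate 1 left out, the log2 fold changes of those genes in *vtc2-4* against the wild type were 0.13 ± 0.12 for AT2G46800, 0.18 ± 0.12 for AT2G46810, and 0.09 ± 0.055 for AT2G46820 (adjusted p = 0.65, 0.46, and 0.44 by edgeR). With all libraries they were 0.23, -0.14, and 0.21 (adjusted p = 0.56, 0.77, and 0.56). In *vtc3-3* against *vtc2-4*, AT2G46810 was at -0.53 ± 0.11 without wild-type replicate 1 (adjusted p = 0.0043, edgeR). It was at -0.54 with all libraries (adjusted p = 0.87, edgeR). AT2G46800 and AT2G46820 were at -0.01 and -0.08 in that comparison without wild-type replicate 1 (adjusted p = 0.97 and 0.40, edgeR). *ELF4* lies 318655 bases from *VTC3*, the gene disrupted in *vtc3-3*, with 92 genes between them.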
